A study of Mus musculus with 6 samples.

Results

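Immediate early genes are the first genes a cell transcribes after a stimulus, from factors already present in the cell. The 10 described here were Fos, Fosb, Jun, Junb, Egr1, Npas4, Nr4a1, Arc, Ier2 and Dusp1. They were taken by symbol from a table of read counts of 41228 entries, in which each of the 10 was listed once. Total RNA came from the cerebellum of C57BL/6 mouse pups aged 6 days, in 6 libraries, 3 of them wild type and 3 from a conditional knockout of SnoN (SnoN cKO), with 1 labelled female and 2 labelled males per genotype. SnoN, encoded by Skil, regulates transcription together with Smad proteins, and the series is about its role in the division of granule neuron precursors after birth. Which Cre line, exons and cells the deletion involved is not stated in the labels, and neither is whether the pups shared a litter. Titles number the libraries 1 to 3 in each genotype.

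In neurons, calcium entry and growth factor receptors reach these genes through the MAP kinase pathway and calcium-dependent kinases. These phosphorylate the transcription factor CREB, which binds the cAMP response element (CRE), and the partners of serum response factor (SRF), which binds the CArG box. Fos, Fosb, Jun and Junb encode subunits of the AP-1 factor, while Egr1, Npas4 and Nr4a1 encode transcription factors of other families. Arc encodes a protein that acts at synapses, Ier2 a nuclear protein, and Dusp1 a phosphatase that switches MAP kinases off. The transcripts are short-lived and can also respond to handling and dissection.

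Sequences just before the start of transcription were available from RefSeq (build GRCm38.p6) for 7 of the 10 genes, namely Fos, Fosb, Jun, Junb, Npas4, Nr4a1 and Dusp1. Each window covered 250 bases before and 50 bases after the start. The CRE core TGACG, searched on both strands, was in 6 of the 7 windows and in 20.8% of all 32851 promoter windows of that length. It lies within the full CRE, TGACGTCA, which was in 1 of the 7 (Dusp1) and in 1.79% of all. It also overlaps the shorter variant TGACGCA, which was in Fosb and Nr4a1 and in 2.12% of all. The 4 windows with 2 or more CRE cores are shown, 5′ to 3′ on the strand of the gene, because CREB sites are what this family of promoters is known for. Capitals mark the core, the shorter variant and the full CRE on either strand and the TATA box TATAAA.
Npas4, chr19:4989922-4990221, minus strand: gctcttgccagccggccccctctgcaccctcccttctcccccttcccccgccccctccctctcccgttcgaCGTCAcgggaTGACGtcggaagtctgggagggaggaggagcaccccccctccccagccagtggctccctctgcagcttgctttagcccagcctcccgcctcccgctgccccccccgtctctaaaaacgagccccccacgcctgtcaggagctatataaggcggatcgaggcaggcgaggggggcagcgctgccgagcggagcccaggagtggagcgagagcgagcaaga
Fos, chr12:85473640-85473939, plus strand: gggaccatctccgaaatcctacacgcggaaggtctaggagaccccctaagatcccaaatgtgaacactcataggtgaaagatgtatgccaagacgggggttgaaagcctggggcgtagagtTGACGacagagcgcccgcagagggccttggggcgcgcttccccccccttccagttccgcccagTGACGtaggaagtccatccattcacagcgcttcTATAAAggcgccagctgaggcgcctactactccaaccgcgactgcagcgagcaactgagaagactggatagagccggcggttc
Nr4a1, chr15:101266596-101266895, plus strand: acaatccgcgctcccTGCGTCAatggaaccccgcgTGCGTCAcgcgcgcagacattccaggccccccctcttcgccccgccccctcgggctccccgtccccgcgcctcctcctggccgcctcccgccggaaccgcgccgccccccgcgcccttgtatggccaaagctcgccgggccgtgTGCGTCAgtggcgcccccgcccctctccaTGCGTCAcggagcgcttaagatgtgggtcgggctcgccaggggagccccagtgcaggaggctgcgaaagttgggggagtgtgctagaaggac
Dusp1, chr17:26508423-26508722, minus strand: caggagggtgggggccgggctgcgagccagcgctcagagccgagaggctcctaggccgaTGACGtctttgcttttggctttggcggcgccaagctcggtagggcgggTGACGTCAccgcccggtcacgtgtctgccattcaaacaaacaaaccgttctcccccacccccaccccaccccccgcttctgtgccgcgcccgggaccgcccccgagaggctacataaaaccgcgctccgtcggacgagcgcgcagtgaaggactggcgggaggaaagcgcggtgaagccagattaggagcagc

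Positions count from the first transcribed base, which is 0, to the first base of a match as printed. Nr4a1 held 4 of the shorter CREs, at -235, -215, -71 and -42. Npas4 held 2 CRE cores, at -179 and -169, which faced opposite ways. In Fos the cores were at -129 and -66 and the TATA box at -33. Dusp1 held its full CRE at -143 and a further core at -191. The TATA box was in 2 of the 7 windows (Fos and Junb) and in 13.6% of all. In Junb its letters began at 0, on the annotated first transcribed base rather than before it. The Egr site GCGGGGGCG was in Fosb and Nr4a1 and in 2.91% of all windows, and the CCAAT box (CCAAT) in Jun and Junb and in 37.4% of all. The AP-1 site TGANTCA and the CArG box were in 0 of the 7, against 7.81% and 1.63% of all windows. These are matches of letters within short windows. Sites spelled otherwise or lying outside the windows were not counted, and binding was not measured.

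**Figure D1:**
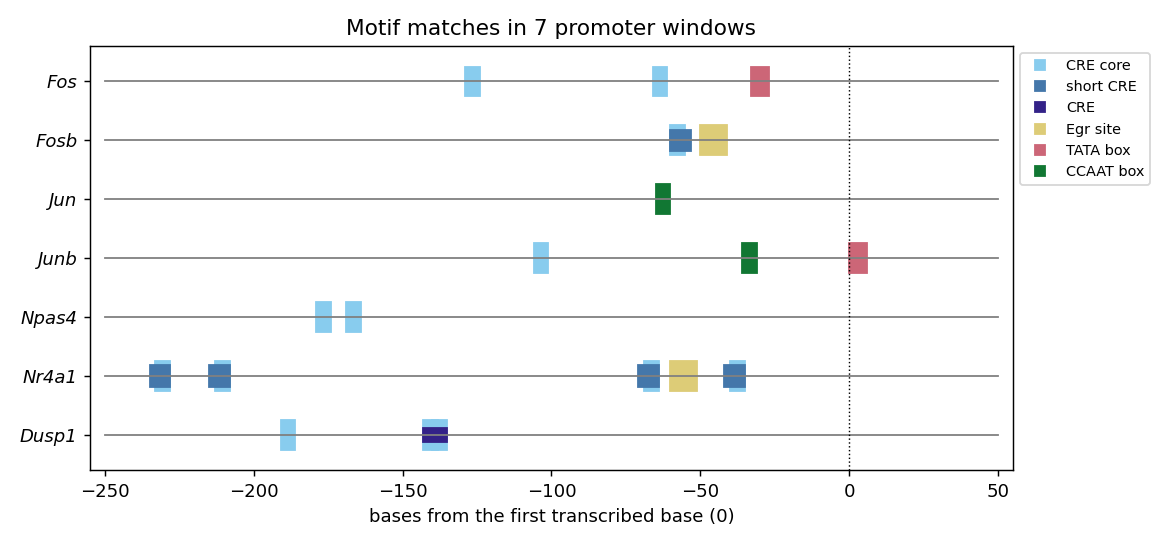
Motif matches in the promoter windows of 7 immediate early genes. The x axis gives bases from the first transcribed base (0), each grey line is a window, and coloured blocks are matches on either strand. CRE cores appear in every gene shown except Jun, and Nr4a1 has 4 of them.

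Libraries held 12605870 to 17757711 counts after exact repeats of an entry were removed. Levels are given in CPM, which is reads of a gene per 1000000 reads on the genes tested after TMM scaling of the libraries, and errors are SD over 3 libraries. Skil, the targeted gene, was at 89.5, 87.5 and 88.9 CPM in wild type 1, 2 and 3 and at 76.0, 74.7 and 77.5 CPM in SnoN cKO 1, 2 and 3. The genotypes did not overlap (log2 fold change -0.22, SE 0.04, unadjusted p = 0.000379 and adjusted p = 0.637 by edgeR's quasi-likelihood test). An exact two-sided permutation test gave p = 0.1, the smallest that 3 against 3 allows. All 10 listed markers of granule precursors and neurons and all 10 of Purkinje cells were detected in every library. So were all 10 each of oligodendrocytes, microglia and choroid plexus, so detection alone does not identify the tissue. Some libraries stood apart. By Xist and 4 Y-linked genes, SnoN cKO 1 (labelled female) matched a male and SnoN cKO 2 (labelled male) a female. SnoN cKO 2 also had 49.2 CPM over 10 choroid plexus markers, against 1805 to 3482 CPM in the other libraries. In SnoN cKO 3 the entry Gm42418 alone held 3.75% of the counts. The sum over 13 brainstem and midbrain markers was 54.9 to 76.6 CPM for wild type pups, against 38.9 to 60.9 CPM for SnoN cKO pups, lowest in SnoN cKO 2. Of the 13, 1 marker averaged 43.8 CPM over the 6 libraries and so made up most of the sum.

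Reads of all 10 genes were present in every library, at levels that spanned a wide range. Per kilobase of exon, the order of the mean levels over the 6 libraries was Jun (26.2 ± 1.62 CPM per kb), Ier2 (13.5 ± 1.05), Dusp1 (7.97 ± 0.807), Fos (2.86 ± 0.242), Nr4a1 (2.70 ± 0.387), Egr1 (2.37 ± 0.278), Junb (2.07 ± 0.439), Arc (1.27 ± 0.135), Npas4 (0.625 ± 0.174) and Fosb (0.0554 ± 0.0197), each with its SD over 6 libraries. Neighbours in that order did not overlap in any library, except for Fos, Nr4a1, Egr1 and Junb, where each overlapped the next. Jun lay above 87.7% of the genes tested that had a length, and Ier2 above 72.1%. Fos, the reference gene of neuronal activation, lay above 30.1%, Arc above 17.6% and Npas4 above 9.17%. Jun alone held 49.4% of all reads on the 10 genes.

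The libraries of the genotypes overlapped for all of these genes except Npas4, which was lower in each SnoN cKO library. By edgeR's quasi-likelihood test, fitted to all 15457 genes that passed a filter on low counts, 0 of the 9 members tested had an adjusted p under 0.05, and 0 of all genes did (0.00%). At an unadjusted p under 0.05 stood 1 member, Npas4, against 7.68% of all genes. The log2 fold change was above 0 for 6 of the 9 members and below 0 for 3, and its median was 0.07. Over all genes tested 49.0% were positive and the median was -0.002. The genotypes did not overlap in 1 member, again Npas4, against 13.7% of all genes, of which 6.95% were higher and 6.73% lower in SnoN cKO. Without wild type 3 there were 3 members at an unadjusted p under 0.05 (Npas4, Junb and Egr1), against 8.81% of all genes in that fit. There were 0 without wild type 1 (5.49% of all genes), without wild type 2 (4.31%) and with DESeq2 (4.32%). Jun, Arc, Nr4a1 and Dusp1 each turned sign with a single library left out. Fosb did not pass the filter.

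**Figure D2:**
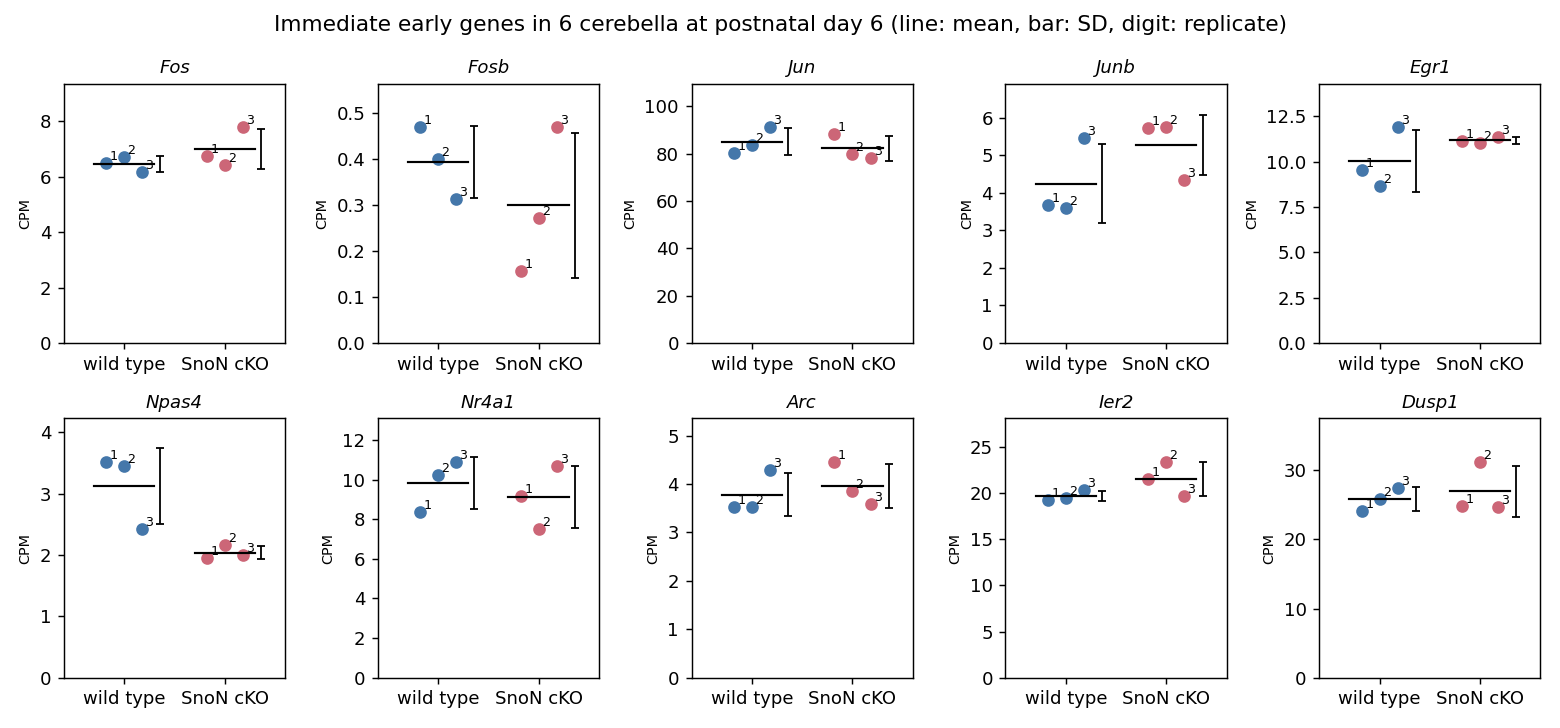
Level of each immediate early gene in CPM (y axis, from 0) in the 3 wild type and 3 SnoN cKO libraries, with replicate numbers beside the points, a line at the mean and a bar for the SD. Only for Npas4 do all SnoN cKO points (1.96 to 2.17 CPM) lie under all wild type points (2.42 to 3.52 CPM).

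Among the AP-1 subunits, Fos was at 6.49, 6.71 and 6.16 CPM in wild type 1, 2 and 3 and at 6.74, 6.43 and 7.80 CPM in SnoN cKO 1, 2 and 3. The genotypes overlapped, and SnoN cKO 3 was the highest. Its log2 fold change was 0.12 (SE 0.13, adjusted p = 0.819), with a 95% interval from -0.17 to 0.40. Without SnoN cKO 3 it was 0.03.

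Fosb, the closest relative of Fos, was nearly silent. Its reads numbered 6, 6 and 4 in the wild type libraries, against 2, 4 and 8 in those of SnoN cKO, or 0.393 ± 0.0790 CPM for the first genotype and 0.299 ± 0.158 CPM for the second. The genotypes overlapped. Without the filter on low counts its log2 fold change was -0.33 (SE 0.60, adjusted p = 0.913). With an SE of that size, a moderate difference of either sign could be missed at this depth.

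Jun, the main partner of Fos in AP-1, had the most reads of the 10. It was at 80.2, 83.8 and 91.3 CPM in wild type 1, 2 and 3 and at 88.3, 80.0 and 78.3 CPM in SnoN cKO 1, 2 and 3. The genotypes overlapped (log2 fold change -0.05, SE 0.06, adjusted p = 0.841). Its 95% interval, -0.19 to 0.09, was the narrowest of the 9.

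Junb, an AP-1 subunit with weaker activating capacity than Jun, split the libraries differently. Wild type 1 and 2 were at 3.68 and 3.59 CPM, while wild type 3 was at 5.46 CPM, beside SnoN cKO 1 and 2 at 5.72 and 5.75 CPM. SnoN cKO 3, at 4.34 CPM, lay below wild type 3. The log2 fold change was 0.31 (SE 0.20, adjusted p = 0.695) with an interval from -0.14 to 0.76, and it was 0.53 without wild type 3 (unadjusted p = 0.0213) and 0.20 without wild type 2. In a later annotation (GENCODE M21) the exons of Junb overlap Prdx2 on the opposite strand, those of Jun overlap Junos and those of Dusp1 overlap Ergic1. The labelled kit (NEBNext Ultra RNA) does not mark strand, so reads on the shared bases cannot be told apart. How far each overlap extends was not measured.

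Npas4, a neuron-specific factor that responds to calcium entry, had the log2 fold change farthest from 0 of the 9 tested. It was at 3.52, 3.45 and 2.42 CPM in wild type 1, 2 and 3, from 45, 52 and 31 reads. In SnoN cKO it was at 1.96, 2.17 and 1.99 CPM, from 25, 32 and 34 reads. Each SnoN cKO library was below each wild type library, as in 6.73% of all genes, and wild type 3 lay closer to the SnoN cKO libraries than to wild type 1 and 2. The log2 fold change was -0.62 (SE 0.21), a fold of 0.651 with a 95% interval from 0.471 to 0.900. It ranked 320 of 15457 genes by p (unadjusted p = 0.0145) and did not pass after adjustment by edgeR (adjusted p = 0.637). A log2 fold change as low as this or lower was found in 1.07% of genes. Without wild type 1 the unadjusted p was 0.0555, and without wild type 2 it was 0.0587 (log2 fold changes of -0.53 in both). Without SnoN cKO 2, the library with the lowest sum of brainstem markers, the log2 fold change was -0.66. In whole tissue, fewer cells of a type and less RNA per cell cannot be told apart.

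Egr1, a zinc finger factor, was at 9.55, 8.63 and 11.9 CPM in wild type 1, 2 and 3 and at 11.1, 11.0 and 11.4 CPM in SnoN cKO 1, 2 and 3. Wild type 3 was above every SnoN cKO library and wild type 1 and 2 below them (log2 fold change 0.16, SE 0.13, adjusted p = 0.748). Its log2 fold change was 0.30 without wild type 3 (unadjusted p = 0.0277) and 0.06 without wild type 2. Nr4a1, an orphan nuclear receptor, had 8.37, 10.2 and 10.9 CPM in the wild type libraries, and 9.16, 7.51 and 10.7 CPM in those of SnoN cKO. The Nr4a1 genotypes overlapped over most of their range (log2 fold change -0.11, SE 0.15, adjusted p = 0.864).

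Of the 3 remaining genes, Arc had 3.52, 3.52 and 4.29 CPM in the wild type libraries, and 4.46, 3.86 and 3.58 CPM in those of SnoN cKO, with overlapping genotypes (log2 fold change 0.07, SE 0.17, adjusted p = 0.930). Wild type 1 and 2, high for Npas4, were the lowest for Arc. Ier2 had 19.2, 19.5 and 20.3 CPM in the wild type libraries, and 21.5, 23.4 and 19.7 CPM in those of SnoN cKO, where SnoN cKO 3 lay within the wild type range (log2 fold change 0.13, SE 0.09, adjusted p = 0.706, and 0.06 without SnoN cKO 2 or 0.20 without SnoN cKO 3). Dusp1 had 24.1, 25.8 and 27.5 CPM in the wild type libraries, and 24.9, 31.3 and 24.7 CPM in those of SnoN cKO, with SnoN cKO 2 alone above wild type (log2 fold change 0.06, SE 0.10, adjusted p = 0.879).

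**Figure D3:**
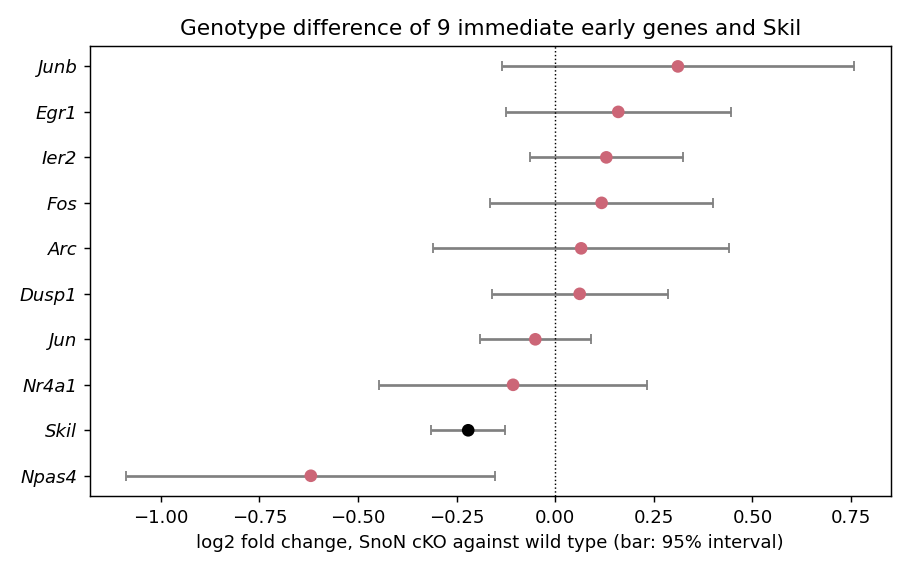
Log2 fold change (x axis, SnoN cKO against wild type) of the 9 immediate early genes tested, in red, and of Skil, in black, with 95% intervals. The intervals of 8 genes cross 0, that of Npas4 runs from -1.09 to -0.15 and that of Skil from -0.31 to -0.13.

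Across all 6 libraries the highest CPM of a tested member was 1.17 times (Jun) to 1.80 times (Npas4) its lowest. The biological coefficient of variation, edgeR's estimate of the spread between animals beyond counting error, was 6.75% for Jun, 7.57% for Ier2, 8.41% for Fos, 9.34% for Arc and 14.0% for Junb. The median over all genes tested was 7.44%, and every tested member but Jun was above it. Members ranked above 38.8% (Jun) to 88.8% (Junb) of genes. For 6 of the 9 members the estimate was below the trend for genes of the same abundance, and for 3 (Junb, Nr4a1 and Dusp1) above it. The share of all genes below the trend was not counted, and edgeR draws each estimate toward it. The SD of Fos in wild type, 4.30% of the mean, was below the 10.7% that counting error alone gives. In Junb it was 24.9% against 13.4% from counting, and in Nr4a1 in SnoN cKO 17.4% against 8.77%.

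**Figure D4:**
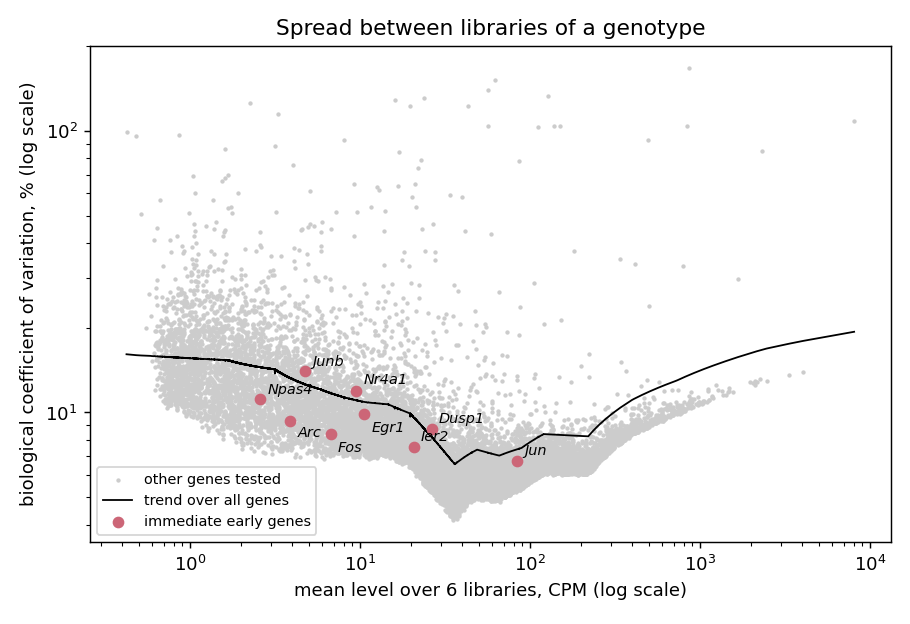
Biological coefficient of variation in percent (y axis, log scale) against mean level in CPM (x axis, log scale) for 15457 genes in grey, with edgeR's trend as a line and the 9 immediate early genes tested in red. The 9 genes run from 6.75% (Jun) to 14.0% (Junb), near the trend toward which edgeR draws each estimate.

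The libraries differed little over the whole group, and wild type 1 was the lowest of the 6. It was above the 6-library mean of a gene for 1 of the 9 tested (Npas4) and below it for 8, whereas the other libraries were above it for 3 to 6. The 10 genes summed to 159 to 181 CPM per wild type library, against 163 to 174 CPM per SnoN cKO library. Wild type 3 was the highest library for 3 genes (Jun, Egr1 and Nr4a1), SnoN cKO 2 for 3 (Junb, Ier2 and Dusp1), wild type 1 for 2 (Fosb and Npas4), and SnoN cKO 1 and 3 for 1 each (Arc and Fos). The mean log2 CPM of the 9 genes, centred on the 6 libraries, ran from -0.07 in wild type 1 to 0.08 in wild type 3. Of 13434 other genes, those whose 6 values followed that mean most closely were Tnik, Tacc2, Nfix, Cntn2 and Scrt2, with Pearson r of 0.992, 0.988, 0.987, 0.984 and 0.983 over 6 libraries, picked as the highest. Cntn2, a cell adhesion protein on the axons of young granule neurons, reached 545 CPM in wild type 3, with the 5 others ranging from 396 to 477 CPM.

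Of 10 further AP-1 genes 9 were tested and 0 passed after adjustment. At an unadjusted p under 0.05 there were 0 of the 9, against 7.68% of all genes. The median log2 fold change was -0.01, with 4 positive and 5 negative. Jund, the constitutive Jun relative, was the most abundant of them with 152 ± 6.41 CPM in SnoN cKO against 140 ± 16.2 CPM. Mafk, a small Maf protein, was higher in each SnoN cKO library, as 6.95% of all genes were (7.81 ± 0.140 against 6.81 ± 0.553 CPM, log2 fold change 0.20, SE 0.12, adjusted p = 0.684). Fosl2 and Fosl1, Fos relatives, had log2 fold changes of -0.13 and -0.11. Of 11 Egr, Nr4a and Klf relatives 9 were tested, with 4 positive, 5 negative and a median of -0.05. Egr3 and Egr4, both activity-regulated, did not pass the filter and had at most 3 and 8 reads in a library. Klf6 had an unadjusted p of 0.0475 (47.3 ± 3.23 against 52.5 ± 3.37 CPM, log2 fold change -0.15, adjusted p = 0.645). Klf4, Klf2 and the Egr co-repressor Nab2 had log2 fold changes of -0.18, -0.14 and 0.20, with overlapping genotypes.

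Among 32 other primary response genes, 16 were positive and 16 negative, with a median of -0.001, and 0 passed after adjustment. Those at an unadjusted p under 0.05 numbered 2, both higher in SnoN cKO, where 3.21% of all genes were. Sgk1, a kinase induced by glucocorticoids and growth factors, was at 65.8 ± 2.28 CPM against 58.4 ± 1.25 CPM in wild type (log2 fold change 0.17, SE 0.05, adjusted p = 0.637). Dusp6, a phosphatase that dampens ERK, was at 44.4 ± 4.08 CPM against 38.6 ± 1.86 CPM (log2 fold change 0.20, SE 0.07, adjusted p = 0.637). Neither gene overlapped between genotypes, and neither did Gadd45a, a stress-response gene (8.53 ± 0.289 against 7.41 ± 0.149 CPM). Cyr61, a matricellular protein, was at 3.55 ± 0.610 CPM against 4.67 ± 0.377 CPM, again without overlap, and Sik1, a salt-inducible kinase, at 18.3 ± 2.36 CPM against 21.9 ± 2.78 CPM. Of the 32 genes 3 were higher and 1 lower without overlap, against 6.95% and 6.73% of all genes.

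Genes that neurons switch on later in an activity response included 3 of 16 tested with an unadjusted p under 0.05, all lower in SnoN cKO, where 4.47% of all genes were. None passed after adjustment. Bdnf, a neurotrophin, was at 2.58, 3.19 and 2.81 CPM in wild type 1, 2 and 3 and at 1.41, 2.30 and 1.23 CPM in SnoN cKO 1, 2 and 3, from 18 to 48 reads. The genotypes did not overlap (log2 fold change -0.80, SE 0.26, adjusted p = 0.637). Nptx2, a pentraxin that gathers glutamate receptors at synapses, had 10.5, 11.4 and 10.3 CPM in the wild type libraries, and 9.24, 8.26 and 8.50 CPM in those of SnoN cKO, also without overlap (log2 fold change -0.31, SE 0.11, adjusted p = 0.637). Scg2, a secretory granule protein, had 101 ± 19.6 CPM in SnoN cKO against 125 ± 15.6 CPM (adjusted p = 0.637). Its genotypes overlapped, with SnoN cKO 3 at 121 CPM and wild type 3 at 111 CPM. Scg2 was lowest in SnoN cKO 2 at 81.4 CPM, the library with the lowest sum of brainstem markers, which rests mostly on 1 of them. Of those 13 markers 8 were tested, all 8 with a log2 fold change below 0 and a median of -1.09. None was at 0 in every library, and 6 (Hoxa4, Hoxa5, Hoxb3, Hoxb4, Hoxb5 and Tph2) were at 0 in at least 1. Among other marker lists, the sums of astrocyte and Bergmann glia markers did not overlap between genotypes, while those of oligodendrocyte and meninges markers did. Over 9 astrocyte and Bergmann glia markers the sums were 4270 to 4586 CPM in SnoN cKO against 4084 to 4138 CPM. At an unadjusted p under 0.05, 5 of the 9 were higher and 2 lower, against 3.21% and 4.47% of all genes. None of the 9 passed after adjustment. Over 10 oligodendrocyte markers the sums were 1193 to 1434 CPM against 1402 to 1470 CPM, with 8 of 10 negative. Over 10 meninges markers they were 1363 to 1683 CPM against 1522 to 1844 CPM, with 10 of 10 negative. No marker of these 3 lists was at 0 in any library. Lists of other cell types also leaned to 1 side, where 49.0% of all genes were positive. Negative were 10 of 10 choroid plexus markers. Positive were 9 of 10 microglia, 8 of 10 granule precursor and neuron, and 8 of 10 Purkinje cell markers. The part of any of these lists in the values of Npas4, Bdnf, Nptx2 and Scg2 was not tested. Of the 16 effector genes 3 were lower without overlap (Bdnf, Nptx2 and Nrn1), against 6.73% of all genes. Higher without overlap were 2 (Rheb and Gpr3), against 6.95% of all genes. Rheb, a GTPase that activates mTOR, was at 116 ± 3.15 CPM against 109 ± 3.36 CPM (log2 fold change 0.09, SE 0.05, adjusted p = 0.654). Gpr3, a receptor that raises cAMP, was at 4.72 ± 0.361 CPM against 4.02 ± 0.190 CPM, and Nrn1, which promotes neurite growth, at 94.3 ± 7.12 CPM against 101 ± 0.835 CPM. Homer1, Nptx1, Syt4 and Lingo1 had log2 fold changes of -0.02, 0.02, 0.02 and 0.01, and the median of the 16 was -0.06.

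Upstream of the members, 29 kinases and activators had a median log2 fold change of -0.01, with 11 positive and 18 negative and 0 passing after adjustment. Map2k1, the MAP kinase kinase MEK1, was at 55.9 ± 3.20 CPM in SnoN cKO against 63.0 ± 3.01 CPM (log2 fold change -0.17, SE 0.06, adjusted p = 0.637), without overlap. Elk3, a partner of SRF, was at 39.8 ± 2.76 CPM against 34.3 ± 1.41 CPM (log2 fold change 0.22, SE 0.06, adjusted p = 0.637), also without overlap. Mapk3 (ERK1) and Braf were lower without overlap too, with log2 fold changes of -0.09 and -0.05, while Mkl2 and Rps6ka1 overlapped at -0.13 and 0.15. Of the 29 genes 1 was higher and 3 lower without overlap, against 6.95% and 6.73% of all genes. The 13 genes of heat shock and handling stress had a median of -0.04, with 3 positive and 10 negative. At an unadjusted p under 0.05 there were 0 of the 13, against 7.68% of all genes. Hspa1a, an inducible heat shock protein, had 1.24 ± 0.352 CPM in SnoN cKO against 1.65 ± 0.328 CPM (adjusted p = 0.703), and Hsp90aa1 182 ± 5.53 CPM against 174 ± 4.72 CPM, without overlap (adjusted p = 0.684). Ddit3, a factor of the unfolded protein response, was lower without overlap at 11.4 ± 0.659 CPM against 12.7 ± 0.456 CPM (adjusted p = 0.695), and Hspb1 had a log2 fold change of -0.22. Of the 13 genes 1 was higher and 1 lower without overlap, against 6.95% and 6.73% of all genes.

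**Figure D5:**
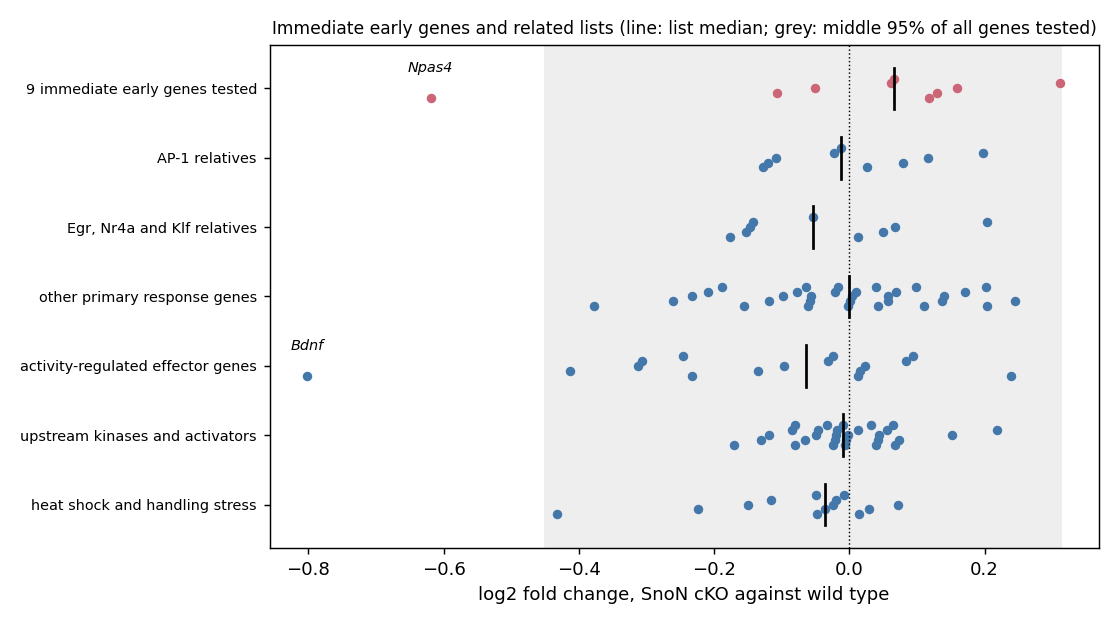
Log2 fold change (x axis, SnoN cKO against wild type) of each tested gene of the immediate early genes, in red, and of 6 related lists, in blue, with the list median as a line. The grey band holds the middle 95% of all genes tested, and Npas4 (-0.62) and Bdnf (-0.80) lie outside it.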

How the data were processed

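The values are unnormalized counts of reads per gene, deposited by the authors as 1 table of 6 libraries. The submitters' processing notes name the mm9 build and the tools STAR 2.0.4b, featureCounts 1.4.5 and Subread, without tying them to steps. No annotation is named. The deposited Ensembl identifiers do not go with the symbols: of 40340 entries whose identifier is in GENCODE M21, 97 carried its symbol. The counts follow the symbols, since 0.00% of 1375 olfactory and vomeronasal receptor entries held over 100 reads in all by symbol and 32.6% by identifier. Genes were therefore taken by symbol, and no identifier is given. Exact repeats of a symbol (140 with reads, 0.465% of the counts) were kept once. Exon lengths came from GENCODE M21 by symbol, another build than the authors'.

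Genes were filtered with filterByExpr (minimum count 10), scaled by TMM and tested with edgeR 4.0.16 (quasi-likelihood, two-sided, Benjamini-Hochberg at 0.05) in R 4.3.3. All 6 libraries entered without covariates. The procedure was run on simulated data with changes larger than those of most members, and its power at smaller changes was not tested. Standard errors are the log2 fold change over the root of F. Alternatives used DESeq2 1.42.0, limma 3.58.1, other scalings, sex and replicate as terms, and single libraries left out. Members and lists were chosen with earlier results of these data known. Besides members and Skil, the rule named up to 4 genes per list by smallest p and the 5 most like the members' mean. Egr3, Egr4, Gadd45a, Gpr3, Nrn1, Mapk3, Braf, Homer1, Nptx1, Syt4 and Lingo1 were chosen after their values were seen. P-values set the difference between genotypes against the spread within genotypes among these 6 animals.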

Additional observations from a re-analysis of the deposited data

How the results depend on the processing

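The count of members past the adjusted threshold was 0 under all 15 alternatives, of which DESeq2 gave an adjusted p for 6 of the 9 members and none for Npas4, Junb and Arc. The count over all genes was 0 with edgeR's quasi-likelihood test, 6 with DESeq2, 5 with edgeR's likelihood ratio test, 39 without the filter on low counts and 1 with the labelled sex as a covariate. It was 0 with sex as given by Xist and Y-linked counts, an alternative chosen after seeing the data. At an unadjusted p under 0.05 stood 1187 genes in edgeR's quasi-likelihood test, 1207 in limma-voom and 668 in DESeq2. Over the 9 tested members and 15 alternatives, 131 of 135 log2 fold changes kept their sign and 4 turned, each on leaving out 1 library, to 0.0027 for Jun (without wild type 3), -0.022 for Arc (without SnoN cKO 1), and 0.017 for Nr4a1 and -0.058 for Dusp1 (both without SnoN cKO 2). The range over single libraries left out was -0.10 to 0.0027 for Jun, -0.022 to 0.16 for Arc, -0.24 to 0.017 for Nr4a1, -0.058 to 0.13 for Dusp1, 0.03 to 0.18 for Fos, 0.20 to 0.53 for Junb, 0.06 to 0.30 for Egr1, 0.06 to 0.20 for Ier2, -0.77 to -0.53 for Npas4 and, among related genes, -0.35 to 0.00030 for Klf4 (turned without SnoN cKO 1). The cause was not tested. Within 100 bases before the start, 3 of the 7 promoter windows held the CRE core (10.5% of all windows). The full CRE was in 0 of the 7 (1.15% of all) and the TATA box in 1 (5.56% of all). The shorter CRE was in 2 (1.05% of all), the Egr site in 2 (1.64%) and the CCAAT box in 2 (18.9%), as in the whole window. The unadjusted p of Npas4 was 0.0579 with DESeq2 and between 0.00417 and 0.0587 with single libraries left out. Skil stayed between -0.24 and -0.21. Same-numbered libraries did not deviate together (correlations of -0.04, -0.32 and -0.18 for numbers 1, 2 and 3). With the replicate block 0 genes and 0 members were called, 786 genes had an unadjusted p under 0.05, and the log2 fold change of Npas4 was -0.60. Low counts limit what can be seen for Fosb, Npas4 and Bdnf.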
